A study of Homo sapiens with 15 samples.

Results

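The CCR4-NOT complex was described here through the ribosome footprints of 10 genes that encode its core subunits, CNOT1, CNOT2, CNOT3, RQCD1, CNOT6, CNOT6L, CNOT7, CNOT8, CNOT10 and CNOT11. RQCD1 is the older symbol of CNOT9. The genes were chosen by name, with earlier results of these data known. All 10 were found among 55773 gene names and passed the filter on low values in every comparison. CCR4-NOT is the main cytoplasmic deadenylase of animal cells: it shortens the poly(A) tail of mRNAs, which lowers their translation and opens the way to decapping and decay. CNOT1 is the scaffold, on which a pair of nucleases, a NOT module that helps to repress target mRNAs, and an amino-terminal module are assembled. Each nuclease position can be filled by either of a pair of paralogs, CNOT6 or CNOT6L at one and CNOT7 or CNOT8 at the other.

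Ribosome profiling, which sequences the mRNA stretches that ribosomes protect from nuclease, was applied to HEK293 cells, an established human embryonic kidney line, in 15 libraries of 5 groups with 3 libraries each. Flag/HA-ZC3H7A cells and Flag/HA-ZC3H7B cells carried an inducible tagged copy of a CCCH zinc finger protein, ZC3H7A or ZC3H7B, and Flag/HA control cells carried the tag alone. All 9 Flag/HA cultures received doxycycline at 1 µg/mL for 24 h, were lysed in a hypotonic buffer and digested with RNase I, and are described in the labels as independent replicates. The libraries labelled ZC3H7A/B-DD have the genotype ZC3H7A-KO-shZC3H7B, which names a knockout of the first gene and a hairpin for the second, and the Parental libraries have the genotype Wild-type-shCTR, wild-type cells with a control hairpin. Both had been under puromycin at 5 µg/mL, which was removed 2 passages before collection, and were lysed as frozen pellets with cycloheximide at 100 µg/mL by a commercial laboratory. The labels do not say whether these 6 samples came from separate cultures, so p-values there reflect just the spread among these samples, which may be technical. Each construct or genotype is given for its own line, so an effect of the protein and a difference between lines cannot be told apart. Because lysis, library kit and laboratory differed, levels were compared within the Flag/HA set and within the ZC3H7A/B-DD and Parental set only.

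The level of a gene is its read number after scaling by the size factor of the library, called normalized counts below. Assigned reads numbered 20777204 to 42680589 per library. The least covered measurement among the 10 genes rested on 241 reads (CNOT6L) and the best covered on 32125 reads (CNOT1). The induced genes marked their lines: ZC3H7A had 37858, 37598 and 38675 normalized counts in Flag/HA-ZC3H7A cells, against 6509, 6526 and 6607 in Flag/HA control cells, and ZC3H7B had 27538, 27182 and 28936 in Flag/HA-ZC3H7B cells, against 2230.5, 2137 and 2089 in Flag/HA control cells. The other gene also differed from Flag/HA control cells in each line. ZC3H7A was lower in Flag/HA-ZC3H7B cells (0.727-fold, limma adjusted p = 1.25e-09), and ZC3H7B was higher in Flag/HA-ZC3H7A cells (1.31-fold, 2.44e-07). Neither target had fewer footprints under the ZC3H7A/B-DD label than in Parental libraries. ZC3H7A had 7116, 1890.3 and 5066 normalized counts in the libraries labelled ZC3H7A/B-DD, against 1885, 1819.9 and 2311 in Parental libraries, and ZC3H7B had 3948, 2399 and 2969, against 2479, 2321 and 2609. Footprints on a disrupted or repressed transcript do not measure the protein, but every direction drawn from this comparison rests on the label alone. Parental replicate 3 stood apart: set against the other 2 Parental libraries, a chi-square test of the reads over genes gave 87.9 and 64.6 per degree of freedom, where counting error alone gives about 1. The remaining Parental pair gave 8.72 and pairs within the Flag/HA groups 1.65 to 6.06. Pairs of the libraries labelled ZC3H7A/B-DD gave 18.3 to 25.5, so that group was also noisier than the Flag/HA groups. The tests, paralog shares, codon groups and list counts of its comparison with Parental libraries are given with and without Parental replicate 3, the library that stood apart. For the codon groups and lists this was chosen after seeing the data. All 8 HEK293 marker genes were at 10 or more in every library, with summed values of 49521 to 54173 in the libraries labelled ZC3H7A/B-DD, against 32377 to 40123 in Parental libraries. The 6 fibroblast markers, of which 3 and 4 were at 10 or more in every library of these groups, summed to 394 to 497 and 575 to 759, and the 5 blood markers, of which 2 and 2 were, to 301 to 362 and 163 to 210.3. In Flag/HA-ZC3H7A, Flag/HA-ZC3H7B and Flag/HA control cells the HEK293 sums were 33556 to 36321, 31309 to 35561 and 29359 to 30996, the fibroblast sums 154 to 169, 155 to 194.5 and 107 to 139, and the blood sums 249 to 324, 333 to 445 and 606 to 799. No listed marker was at 0 in all libraries of a group. The part of these differences in the results was not tested. In bulk libraries, fewer cells of a kind and less RNA per cell cannot be told apart, and footprints alone do not separate the amount of an mRNA from how well it is translated.

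A pair of coding stretches shows how alike the CCR4-type paralogs are, since reads that fall on identical bases could be assigned to either gene. They cover codons 198 to 227, in coding exon 6 of CNOT6 (chr5:180565852-180565941, plus strand) and coding exon 7 of CNOT6L (chr4:77744754-77744843, minus strand). Of 90 bases, 76 were identical, and 10 of the differences lay at the third position of a codon. The differences were spread along the stretch, so identical runs were short. A further pair shows members that differ widely in codon use and changed in opposite directions with both proteins: CNOT3, codons 299 to 328 in coding exon 10 (chr19:54148148-54148237, plus strand), and CNOT10, codons 399 to 428 in coding exon 10 (chr3:32727670-32727759, plus strand), each the first 30 whole codons of the gene's longest coding exon. Sequences and positions are those of GENCODE release 29 on GRCh38, printed 5′ to 3′, with capitals at the third base of each codon that ends in A or T.
CNOT6: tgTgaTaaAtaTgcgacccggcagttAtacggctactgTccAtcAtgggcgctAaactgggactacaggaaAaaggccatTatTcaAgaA
CNOT6L: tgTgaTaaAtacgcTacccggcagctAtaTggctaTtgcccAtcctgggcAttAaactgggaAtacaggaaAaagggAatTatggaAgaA
CNOT3: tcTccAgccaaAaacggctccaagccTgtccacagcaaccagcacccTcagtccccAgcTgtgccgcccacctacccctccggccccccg
CNOT10: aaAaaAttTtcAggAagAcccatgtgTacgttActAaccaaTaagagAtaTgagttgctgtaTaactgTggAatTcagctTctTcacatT
The CNOT6 and CNOT6L stretches hold 14 and 16 codons that end in A or T, and those of CNOT3 and CNOT10 hold 7 and 19. Not all members follow the contrast of CNOT3 and CNOT10. CNOT7, with 60.6% of its codons ending in A or T, was higher with both proteins, and CNOT11, with 40.9%, was lower. The annotation also lists processed copies of some members. CNOT6LP1 had 1.58 to 33.5 normalized counts per library, far below CNOT6L itself, and reads that belong to such a copy cannot be told apart from those of its parent gene where the bases are identical. Some coding bases are shared with genes on the opposite strand: 76 of CNOT1 with SETD6 and 133 with AC009118.3, 96 of CNOT3 (4.24% of its coding bases) with LENG1, and 45 of CNOT10 with CNOT10-AS1. Whether the counting used strand is not given in the sources used here, so reads on those bases cannot be told apart.

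The genes lie on 8 chromosomes, with positions as in GENCODE release 29 on GRCh38. CNOT1, the scaffold, is at chr16:58519951-58629886 on the minus strand and has 7131 coding bases in 48 coding exons. The NOT module genes are CNOT2 at chr12:70242994-70354993 (plus strand, 1623 coding bases in 15 coding exons) and CNOT3 at chr19:54137717-54155708 (plus strand, 2262 in 17). RQCD1, whose protein binds tryptophan-containing motifs of recruiting proteins, is at chr2:218568580-218597080 (plus strand, 996 in 9). The nuclease genes of the CCR4 type are CNOT6 at chr5:180494412-180578405 (plus strand, 1674 in 11) and CNOT6L at chr4:77713387-77819615 (minus strand, 1668 in 12). Those of the CAF1 type are CNOT7 at chr8:17224964-17246878 (minus strand, 858 in 6) and CNOT8 at chr5:154857553-154876793 (plus strand, 879 in 6). The amino-terminal module is encoded by CNOT10 at chr3:32685145-32773875 (plus strand, 2415 in 19) and CNOT11 at chr2:101252802-101270316 (plus strand, 1533 in 7).

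Per kilobase of coding sequence, CNOT1 stood first and CNOT6L last in all 5 groups. CNOT1 averaged 3903 ± 57.3 normalized counts per kilobase in Flag/HA-ZC3H7A cells, 4209.6 ± 149.7 in Flag/HA-ZC3H7B cells and 4162 ± 51.9 in Flag/HA control cells (SD, n = 3 each). CNOT8 came next, with 3790.3 ± 110.3 in Flag/HA-ZC3H7A cells, 3952 ± 179 in Flag/HA-ZC3H7B cells and 4029 ± 103 in Flag/HA control cells. The libraries of these genes overlapped in Flag/HA-ZC3H7A cells and in Flag/HA-ZC3H7B cells and did not in Flag/HA control cells. CNOT6L averaged 864 ± 119.9 per kilobase in Flag/HA-ZC3H7A cells, 659 ± 17.2 in Flag/HA-ZC3H7B cells and 558 ± 31.7 in Flag/HA control cells. The members between them changed places: CNOT7 ranked the fourth in Flag/HA-ZC3H7A cells and the sixth in Flag/HA control cells, while CNOT3 ranked the seventh in Flag/HA-ZC3H7A cells and the ninth in Flag/HA control cells, where its libraries overlapped those of CNOT10. Other ranks were not separated either. In Flag/HA-ZC3H7A cells the CNOT7 libraries overlapped those of CNOT2 and RQCD1, and CNOT3 overlapped CNOT6. In Flag/HA control cells CNOT7 overlapped CNOT6. Among the libraries labelled ZC3H7A/B-DD, CNOT1 averaged 3395 ± 96.4 per kilobase and CNOT6L 233 ± 4.71, against 3230 ± 268 and 287 ± 25.2 in Parental libraries. CNOT8 again came second in both groups, and its libraries overlapped those of the gene ranked next, CNOT3 in the libraries labelled ZC3H7A/B-DD and RQCD1 in Parental libraries. The summed reads of the 10 genes made up 0.161% to 0.165% of assigned reads in Flag/HA-ZC3H7A cells, 0.169% to 0.170% in Flag/HA-ZC3H7B cells, 0.159% to 0.160% in Flag/HA control cells, 0.136% to 0.139% in the libraries labelled ZC3H7A/B-DD and 0.133% to 0.140% in Parental libraries.

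**Figure D1:**
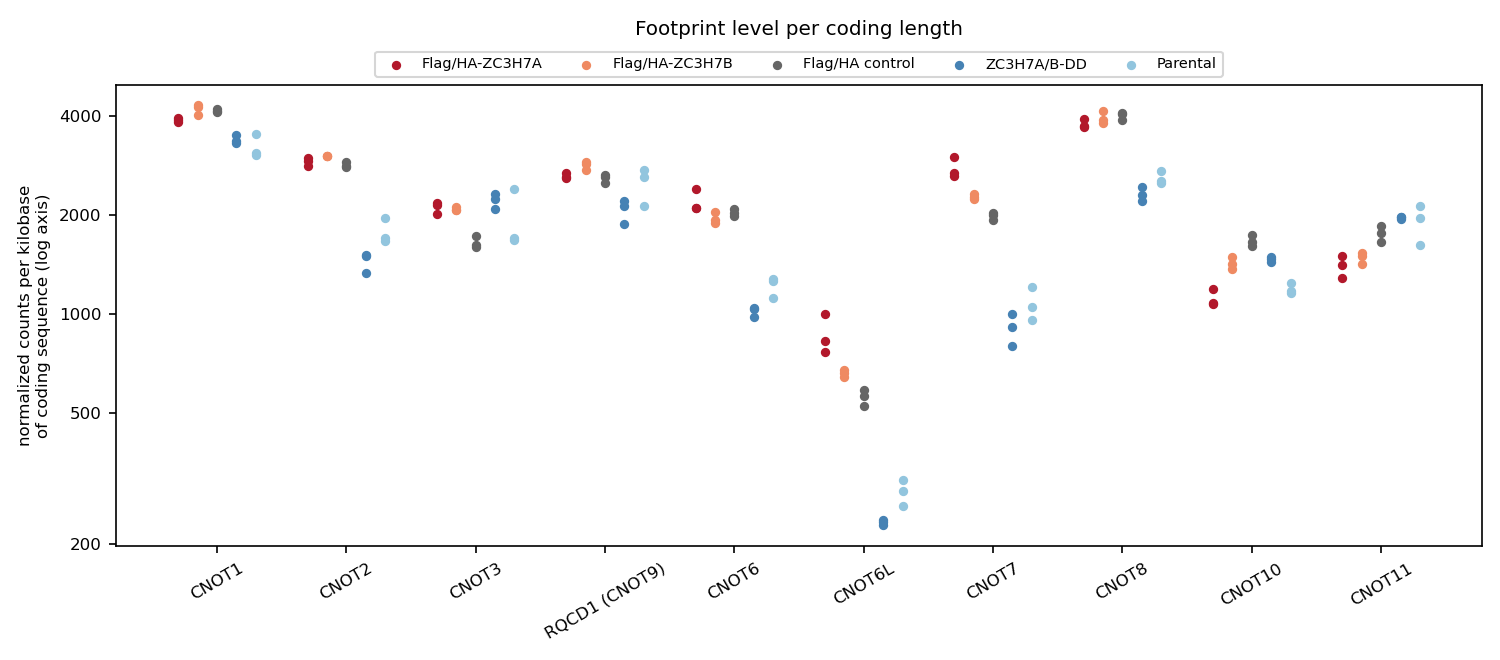
Normalized counts per kilobase of coding sequence (log axis) for the 10 genes, each point 1 library, coloured by group. CNOT1 is the highest and CNOT6L the lowest gene by mean in each of the 5 groups, with CNOT6L between 227.6 and 997.7 over all libraries.

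The first comparison was of Flag/HA-ZC3H7A cells with Flag/HA control cells. Footprints rose on the paralog of each nuclease pair that had fewer per kilobase, CNOT6L (1.54-fold) and CNOT7 (1.39-fold), and on CNOT3 of the NOT module (1.28-fold), and fell on both amino-terminal subunits, CNOT10 (to 0.668-fold) and CNOT11 (to 0.795-fold). The scaffold CNOT1, CNOT2, RQCD1, CNOT6 and CNOT8 did not pass the test. Thus 3 members were higher and 2 lower by limma at an adjusted p under 0.05, where 57.5% of all 15599 tested genes passed, 29.2% higher and 28.2% lower, so the share of members called was near that of all genes. With quantile scaling 5 members were higher and 2 lower. The median log2 change of the members was 0.03 and that of all genes 0.02, and the median size of the change was 0.22 and 0.32.

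**Figure D2:**
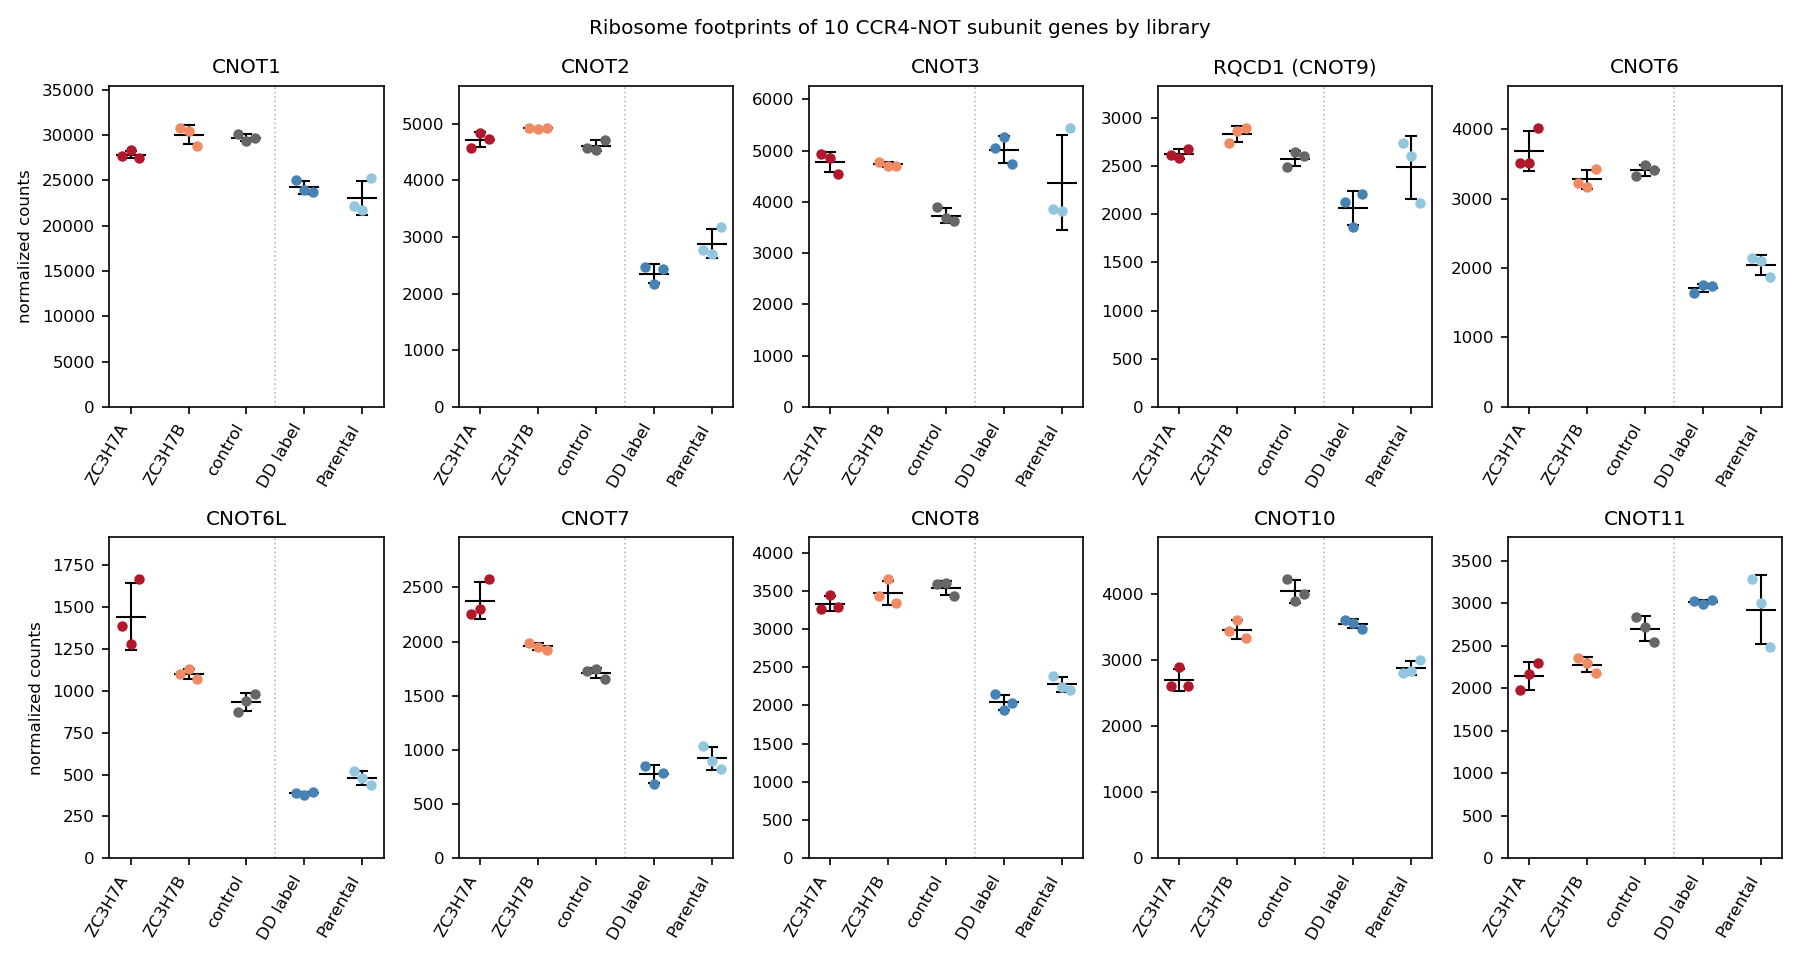
Normalized counts of each of the 10 genes by group, with points for the 3 libraries, a bar for the mean and whiskers for the SD; the dotted line separates the Flag/HA set, where ZC3H7A, ZC3H7B and control stand for the 3 Flag/HA groups, from the set of the libraries labelled ZC3H7A/B-DD (DD label) and Parental. CNOT10 lies at 2596 to 2884 in Flag/HA-ZC3H7A cells and at 3882 to 4214 in Flag/HA control cells, while CNOT6L lies at 1277 to 1664 and at 875 to 979 in them.

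CNOT6L, a CCR4-type nuclease, had 1383, 1277 and 1664 normalized counts in Flag/HA-ZC3H7A cells, against 875, 940.3 and 979 in Flag/HA control cells. All Flag/HA-ZC3H7A libraries lay above all control libraries, with replicate 3 the highest. The log2 change was 0.62 ± 0.08 (SE, limma adjusted p = 1.96e-07). CNOT7, a CAF1-type nuclease that also joins the CCR4-type subunit to the scaffold, had 2256, 2302 and 2573 normalized counts in Flag/HA-ZC3H7A cells, against 1724, 1749 and 1654 in Flag/HA control cells. Its groups did not overlap either, and replicate 3 was again the highest of the Flag/HA-ZC3H7A libraries. The log2 change of CNOT7 was 0.47 ± 0.05 (limma adjusted p = 7.54e-08). Their paralogs had smaller differences. CNOT6 had 3512, 3515 and 4018 normalized counts in Flag/HA-ZC3H7A cells, against 3329, 3488 and 3411 in Flag/HA control cells, a log2 change of 0.11 with a 95% interval of -0.00 to 0.22 (limma adjusted p = 0.0839). These libraries did not overlap, but replicates 1 and 2 of the Flag/HA-ZC3H7A cells were close to the highest control library; without replicate 1 or 2 the change passed the test (limma adjusted p = 0.0488 and 0.0437), and without replicate 3 it was 0.04 (0.474). CNOT8 had 3263, 3443 and 3289 normalized counts in Flag/HA-ZC3H7A cells, against 3584, 3603 and 3438 in Flag/HA control cells, which overlapped, and its log2 change was -0.09 with a 95% interval of -0.19 to 0.01 (limma adjusted p = 0.113).

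CNOT10, which with CNOT11 binds the amino-terminal part of CNOT1, had 2596, 2884 and 2602 normalized counts in Flag/HA-ZC3H7A cells, against 4214, 3882 and 3998 in Flag/HA control cells. Every Flag/HA-ZC3H7A library lay below every control library. The log2 change was -0.58 ± 0.05 (SE, limma adjusted p = 1.31e-09), lower than that of all but 10.8% of tested genes. CNOT11 had 1975, 2168 and 2298 normalized counts in Flag/HA-ZC3H7A cells, against 2839, 2716 and 2543 in Flag/HA control cells, also without overlap. It fell by 0.33 on the log2 scale (SE 0.06, limma adjusted p = 2.89e-05).

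CNOT3, a NOT-module subunit whose yeast counterpart Not5 can bind the ribosome, had 4939.6, 4849.6 and 4554 normalized counts in Flag/HA-ZC3H7A cells, against 3898, 3679 and 3619 in Flag/HA control cells. The groups did not overlap, and the log2 change was 0.36 ± 0.05 (SE, limma adjusted p = 4.63e-07). LENG1, which overlaps CNOT3 on the opposite strand, averaged 479 normalized counts in Flag/HA-ZC3H7A cells, 505 in Flag/HA-ZC3H7B cells and 256 in Flag/HA control cells, and its part in the CNOT3 difference was not tested. CNOT2, the partner of CNOT3, had 4575, 4843 and 4736 normalized counts in Flag/HA-ZC3H7A cells, against 4576, 4540.0 and 4716 in Flag/HA control cells. These overlapped, and the 95% interval of the log2 change ran from -0.05 to 0.12. RQCD1 had 2611, 2586 and 2678 in Flag/HA-ZC3H7A cells, against 2489, 2646 and 2599.7 in Flag/HA control cells, with an interval of -0.07 to 0.12. CNOT1 had 27728, 28282 and 27485 normalized counts in Flag/HA-ZC3H7A cells, against 30058, 29318 and 29666 in Flag/HA control cells. Its Flag/HA-ZC3H7A libraries were all lower, by a log2 change of -0.09 ± 0.04 (SE, limma adjusted p = 0.0748); DESeq2 on the recovered reads gave an adjusted p of 0.00463. Over all genes 63.9% had no overlap between these groups, and 7 of the 10 members had none.

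**Figure D3:**
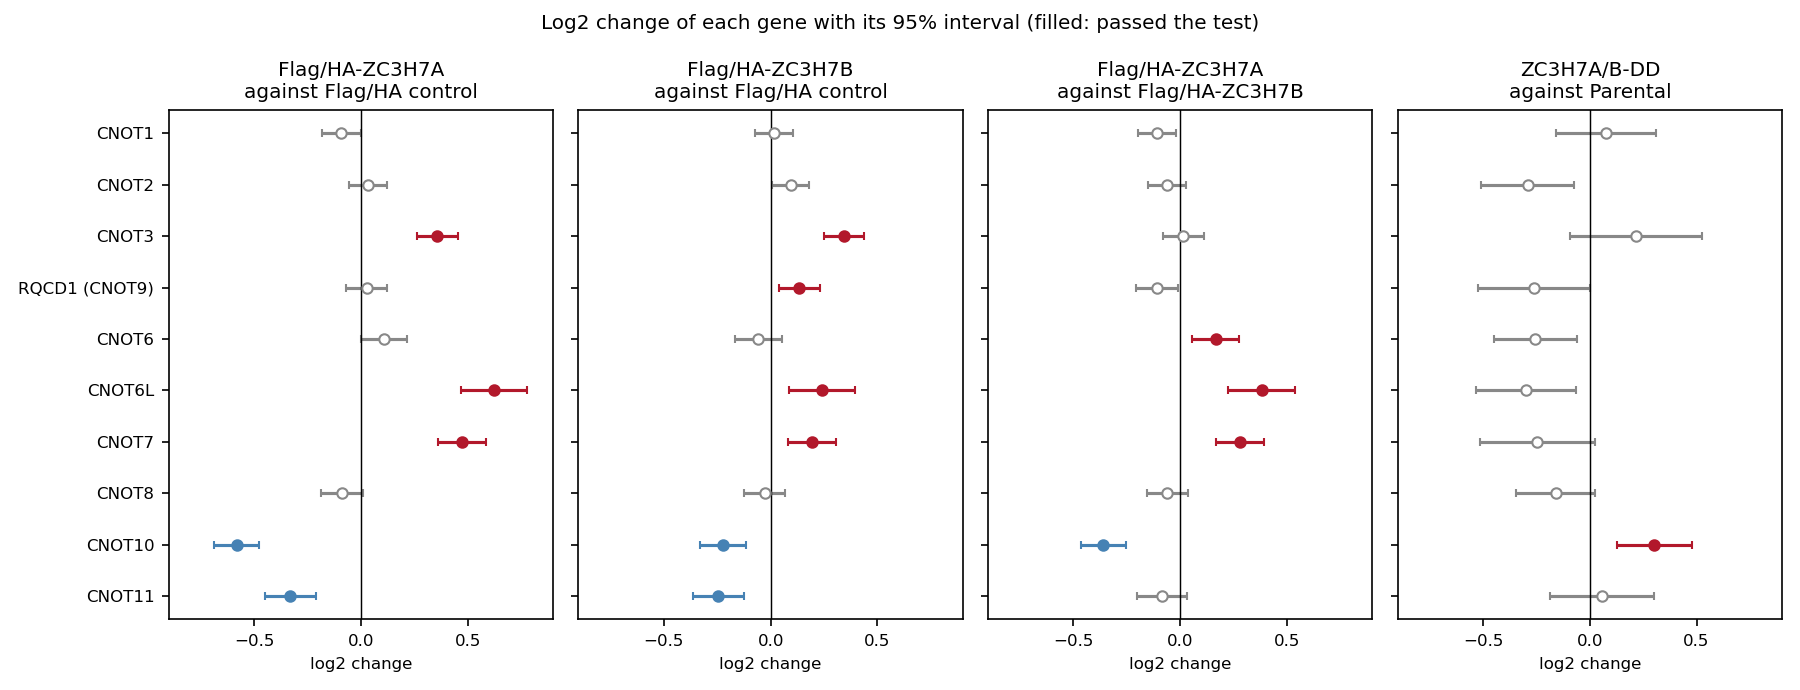
Log2 change of each gene (horizontal axis) in the 4 comparisons, with its 95% interval from limma; filled red points passed the test as higher, filled blue points as lower, and open points did not pass. CNOT6L and CNOT7 are to the right of 0 and CNOT10 and CNOT11 to the left with both proteins, and in the last panel CNOT10 alone passed, at 0.30.

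Set against the same control libraries, Flag/HA-ZC3H7B cells had higher footprints on CNOT3 (1.27-fold), CNOT6L (1.18-fold), CNOT7 (1.14-fold) and RQCD1 (1.10-fold) and lower ones on CNOT10 (0.857-fold) and CNOT11 (0.844-fold). With 4 members higher and 2 lower, the share called stood beside 54.3% of all tested genes by limma at an adjusted p under 0.05, 28.9% higher and 25.4% lower. Quantile scaling gave 5 higher and 1 lower. The median log2 change was 0.05 over the members and 0.04 over all genes, and 7 of 10 members had no overlap between groups, against 61.1% of all genes. Since the control libraries are shared, the values for the 2 proteins are given side by side and their likeness was not tested.

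CNOT3 had 4784, 4707 and 4704 normalized counts in Flag/HA-ZC3H7B cells, against 3898, 3679 and 3619 in Flag/HA control cells, all above the controls, and a log2 change of 0.34 ± 0.05 (SE, limma adjusted p = 9.58e-07). CNOT6L had 1101, 1128 and 1071 in Flag/HA-ZC3H7B cells, against 875, 940.3 and 979 in Flag/HA control cells. The groups did not overlap, and its log2 change of 0.24 ± 0.08 passed (limma adjusted p = 0.00919), but without Flag/HA control replicate 1, the lowest control library, it was 0.20 (adjusted p = 0.0542). CNOT7 had 1986, 1950.4 and 1926 normalized counts in Flag/HA-ZC3H7B cells, against 1724, 1749 and 1654 in Flag/HA control cells, with a log2 change of 0.19 ± 0.05 (limma adjusted p = 0.00400), a call that was lost in a fit over all 15 libraries (0.0915). RQCD1, the recruiter-binding subunit, had 2735, 2861 and 2897 in Flag/HA-ZC3H7B cells, against 2489, 2646 and 2599.7 in Flag/HA control cells. Its libraries did not overlap, with a log2 change of 0.13 ± 0.05 (limma adjusted p = 0.0179), and the call was lost without Flag/HA control replicate 1 (adjusted p = 0.0986), without Flag/HA-ZC3H7B replicate 2 (0.0541), with no filter on low values (0.0532), in DESeq2 (0.0740) and in a fit over all 15 libraries (0.222).

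CNOT10 had 3433, 3607 and 3324 normalized counts in Flag/HA-ZC3H7B cells, against 4214, 3882 and 3998 in Flag/HA control cells. All Flag/HA-ZC3H7B libraries were below the controls, by a log2 change of -0.22 ± 0.05 (SE, limma adjusted p = 0.000791), which was -0.11 under quantile scaling (adjusted p = 0.0511). CNOT11 had 2351, 2299 and 2178 in Flag/HA-ZC3H7B cells, against 2839, 2716 and 2543 in Flag/HA control cells, without overlap, and a log2 change of -0.25 ± 0.06 (limma adjusted p = 0.000880). Among members not called, CNOT1 had 30779, 30478 and 28798 normalized counts in Flag/HA-ZC3H7B cells, on both sides of the controls, and a 95% interval of -0.08 to 0.11. CNOT2 had 4926, 4915 and 4921 in Flag/HA-ZC3H7B cells, just above the highest control library of 4716, with a log2 change of 0.09 (limma adjusted p = 0.0652). CNOT6 had 3231, 3167 and 3429 and CNOT8 had 3427, 3649.9 and 3346 in Flag/HA-ZC3H7B cells, and both overlapped the controls, with intervals of the log2 change of -0.17 to 0.05 and -0.13 to 0.07.

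Compared directly, Flag/HA-ZC3H7A cells had more footprints than Flag/HA-ZC3H7B cells on CNOT6L (1.30-fold), CNOT7 (1.21-fold) and CNOT6 (1.12-fold) and fewer on CNOT10 (0.779-fold). This contrast equals the difference between the changes with the 2 proteins, and by limma at an adjusted p under 0.05 it gave 3 members higher and 1 lower, beside 36.6% of all tested genes, 18.4% higher and 18.2% lower. Quantile scaling gave 3 and 3. For CNOT10, the libraries of the lines stood at 2596 to 2884 in Flag/HA-ZC3H7A cells and 3324 to 3607 in Flag/HA-ZC3H7B cells, with a log2 change of -0.36 ± 0.05 (SE, limma adjusted p = 4.94e-06). CNOT6L stood at 1277 to 1664 in Flag/HA-ZC3H7A cells and 1071 to 1128 in Flag/HA-ZC3H7B cells (log2 change 0.38 ± 0.08, limma adjusted p = 0.000264), and CNOT7 at 2256 to 2573 and 1926 to 1986 (0.28 ± 0.05, limma adjusted p = 0.000196). Neither gene overlapped between the lines. CNOT6 stood at 3512 to 4018 in Flag/HA-ZC3H7A cells and 3167 to 3429 in Flag/HA-ZC3H7B cells, with a log2 change of 0.17 ± 0.05 (limma adjusted p = 0.0154). That call was lost without Flag/HA-ZC3H7A replicate 3 (log2 change 0.10, adjusted p = 0.119), without Flag/HA-ZC3H7B replicate 1 (0.0506) or 2 (0.0737), and in a fit over all 15 libraries (0.0964). The difference for CNOT3 was 0.01, with a 95% interval of -0.08 to 0.11, and that for CNOT11 was -0.09, with an interval of -0.20 to 0.03. CNOT1 was lower in Flag/HA-ZC3H7A cells without overlap (log2 change -0.11, limma adjusted p = 0.0564), and without Flag/HA-ZC3H7B replicate 3 it passed at -0.14 (adjusted p = 0.00289). Over the members, 7 of 10 did not overlap between these lines, against 43.7% of all genes, and the median log2 change was -0.06, against -0.01 over all genes.

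Because the paralogs of a pair compete for 1 position in the complex, their shares of the pair were computed from counts per kilobase. The CNOT6L share of CNOT6 plus CNOT6L was 28.3%, 26.7% and 29.4% in Flag/HA-ZC3H7A cells, 25.5%, 26.3% and 23.9% in Flag/HA-ZC3H7B cells, and 20.9%, 21.3% and 22.4% in Flag/HA control cells. Each line held its own range, with Flag/HA-ZC3H7A highest and control lowest. The CNOT8 share of CNOT7 plus CNOT8 was 58.5%, 59.3% and 55.5% in Flag/HA-ZC3H7A cells, 62.8%, 64.6% and 62.9% in Flag/HA-ZC3H7B cells, and 67.0%, 66.8% and 67.0% in Flag/HA control cells. Here the order of the lines was turned round, again without overlap. The CNOT6L share was 6.63 percentage points higher in Flag/HA-ZC3H7A cells and 3.72 higher in Flag/HA-ZC3H7B cells than in Flag/HA control cells, and the CNOT8 share lower, by differences of -9.12 and -3.49. Between the lines, Flag/HA-ZC3H7A minus Flag/HA-ZC3H7B gave 2.91 points for CNOT6L and -5.63 for CNOT8. Each of these 6 differences had a two-sided exact permutation p of 0.1, the smallest that 3 against 3 libraries allow, and 0.133 after Benjamini-Hochberg adjustment over the 8 share comparisons, so none could pass 0.05. In the libraries labelled ZC3H7A/B-DD the CNOT6L share averaged 18.6% ± 0.68, against 19.0% ± 0.458 in Parental libraries, and the CNOT8 share 72.0% ± 1.24, against 70.8% ± 1.50 (SD, n = 3 each, exact permutation p = 0.4 for each). These differences of -0.458 and 1.24 points were -0.528 and 1.98 without Parental replicate 3. Leaving out any 1 library of these groups, they ran from -0.795 (without replicate 1 of the libraries labelled ZC3H7A/B-DD) to -0.115 (without replicate 2 of them) for CNOT6L and from 0.48 (without Parental replicate 1) to 1.98 for CNOT8.

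**Figure D4:**
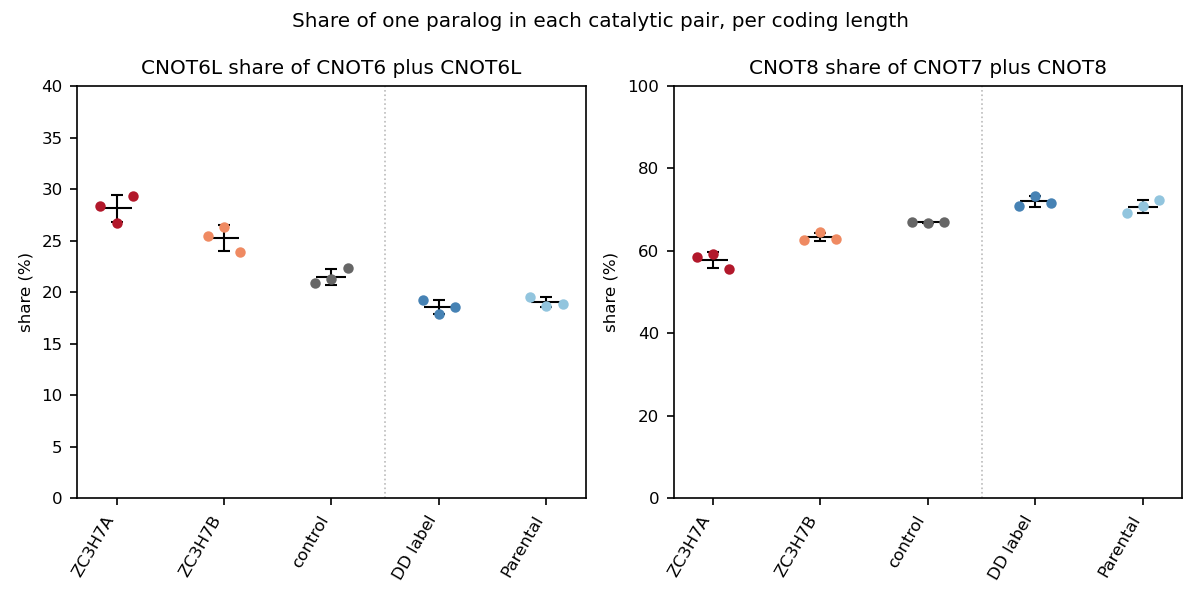
Share of CNOT6L in CNOT6 plus CNOT6L and of CNOT8 in CNOT7 plus CNOT8, in percent of normalized counts per kilobase of coding sequence, with 1 point per library, the mean and the SD. The 3 Flag/HA groups do not overlap in either panel, and the libraries labelled ZC3H7A/B-DD (DD label) overlap the Parental libraries in both.

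Relative to the scaffold, and per kilobase, the modules were compared as ratios, which are descriptions with no test. CNOT7 plus CNOT8 stood at 1.68 ± 0.0608 times CNOT1 in Flag/HA-ZC3H7A cells, 1.48 ± 0.0355 in Flag/HA-ZC3H7B cells and 1.45 ± 0.0446 in Flag/HA control cells (SD, n = 3 each). CNOT6 plus CNOT6L stood at 0.786 ± 0.0845, 0.622 ± 0.0379 and 0.624 ± 0.0247 times CNOT1 in Flag/HA-ZC3H7A, Flag/HA-ZC3H7B and Flag/HA control cells. For the amino-terminal module, CNOT10 plus CNOT11, the ratios ran the other way, 0.645 ± 0.0324 in Flag/HA-ZC3H7A cells, 0.692 ± 0.00787 in Flag/HA-ZC3H7B cells and 0.824 ± 0.0284 in Flag/HA control cells. CNOT2 plus CNOT3 stood at 1.29 ± 0.00676, 1.22 ± 0.0413 and 1.08 ± 0.00368 times CNOT1 in these groups.

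The comparison of the libraries labelled ZC3H7A/B-DD with Parental libraries gave a single call among the members: CNOT10 was higher (1.23-fold). By limma at an adjusted p under 0.05, 1 member was higher and 0 were lower, beside 24.5% of all 17092 tested genes, 11.0% higher and 13.5% lower. At an unadjusted p under 0.05, 5 members differed, and the share of all genes at that threshold was not computed. For lower calls edgeR on the recovered reads gave 2, TMM scaling gave 2 and quantile scaling gave 1, each beside 1 higher. These settings called 2503, 2508 and 2295 of the 17092 genes lower. Array weights and a fit over all 15 libraries gave more lower members, as listed in the closing section with their counts over all genes. The median log2 change of the members was -0.20, against 0.02 over all genes, and 5 of 10 members had no overlap between the groups, against 40.8% of all genes. Without Parental replicate 3, 2 members were higher and 3 lower, where 33.1% of 16806 genes passed, 15.7% higher and 17.4% lower.

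CNOT10 had 3607, 3557 and 3469 normalized counts in the libraries labelled ZC3H7A/B-DD, against 2792, 2832 and 3003 in Parental libraries. The groups did not overlap, and the log2 change was 0.30 ± 0.08 (SE, limma adjusted p = 0.0215). Without Parental replicate 3, the highest Parental library for this gene, it was 0.33 (adjusted p = 0.00624). Leaving out any other library ended the call: the adjusted p was 0.0566, 0.0528 and 0.0658 without replicates 1, 2 and 3 of the libraries labelled ZC3H7A/B-DD and 0.0860 and 0.107 without Parental replicates 1 and 2, with log2 changes between 0.28 and 0.32; with no filter on low values it was 0.0616, and with a replicate block 0.0716. CNOT3 had 5055, 5263 and 4737 normalized counts in the libraries labelled ZC3H7A/B-DD, against 3858, 3816 and 5446 in Parental libraries. Parental replicate 3 was the highest of all 6, the other Parental libraries were the lowest, and the log2 change was 0.22 (limma adjusted p = 0.280) with that library and 0.39 (0.00435) without it. LENG1, on the opposite strand, averaged 1439 normalized counts in the libraries labelled ZC3H7A/B-DD, against 1065.5 in Parental libraries.

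Both CCR4-type genes were lower in every library labelled ZC3H7A/B-DD than in any Parental library, though neither passed the test with all libraries. CNOT6 had 1640.4, 1748 and 1737 normalized counts in the libraries labelled ZC3H7A/B-DD, against 2146, 2105 and 1877 in Parental libraries, a log2 change of -0.26 (limma adjusted p = 0.0587), or -0.32 (0.0119) without Parental replicate 3. CNOT6L had 389.7, 379.6 and 395 in the libraries labelled ZC3H7A/B-DD, against 519.6, 481 and 436 in Parental libraries, a log2 change of -0.30 (limma adjusted p = 0.0667), or -0.36 (0.0251) without Parental replicate 3. That library was the lowest Parental one for both. RQCD1 had 2123, 1868 and 2208 normalized counts in the libraries labelled ZC3H7A/B-DD, against 2741, 2602 and 2118 in Parental libraries, and Parental replicate 3 lay within the range of the libraries labelled ZC3H7A/B-DD. Its log2 change was -0.26 (limma adjusted p = 0.129) with that library and -0.37 (0.0121) without it.

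CNOT2 had 2465, 2166 and 2432 normalized counts in the libraries labelled ZC3H7A/B-DD, against 2763, 2701 and 3181 in Parental libraries. These did not overlap, with a log2 change of -0.29 (limma adjusted p = 0.0560), or -0.22 (0.0763) without Parental replicate 3, here the highest. CNOT8 had 2145, 1944 and 2030.1 in the libraries labelled ZC3H7A/B-DD, against 2391, 2242 and 2199.5 in Parental libraries, also without overlap, with a log2 change of -0.16 (limma adjusted p = 0.188), or -0.18 (0.111) without Parental replicate 3. CNOT7 had 856, 688 and 784 in the libraries labelled ZC3H7A/B-DD, against 1037, 903 and 825 in Parental libraries; they overlapped at Parental replicate 3, and the log2 change was -0.25 (limma adjusted p = 0.162), or -0.32 (0.0602) without it. CNOT1 had 24987, 23949 and 23687 in the libraries labelled ZC3H7A/B-DD, against 22122, 21740.0 and 25226 in Parental libraries, overlapping only at Parental replicate 3, with a log2 change of 0.07 and a 95% interval of -0.16 to 0.31, or 0.14 (limma adjusted p = 0.196) without that library. CNOT11 had 3020.3, 2993 and 3033, inside the Parental range of 2479.9 to 3279.7, and its log2 change of 0.06 turned to -0.06 without Parental replicate 3. For CNOT10 the log2 change was negative with each protein and positive here. For CNOT6L and CNOT7 it was positive with each protein and negative here, where neither passed the test. With ZC3H7A, with ZC3H7B and here, CNOT2 (0.03, 0.09 and -0.29) and RQCD1 (0.03, 0.13 and -0.26) also went from positive to negative. CNOT11 (-0.33, -0.25 and 0.06) went from negative to positive, though not without Parental replicate 3. CNOT1 (-0.09, 0.02 and 0.07) and CNOT6 (0.11, -0.06 and -0.26) differed in sign between ZC3H7A and ZC3H7B. Only CNOT3, at 0.36, 0.34 and 0.22, and CNOT8, at -0.09, -0.03 and -0.16, kept their sign in all of these. The Flag/HA comparisons share no libraries with this one, and a difference between the sets was not tested.

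Codons that end in A or T made up 26.1% of the codons of CNOT3, 40.9% of CNOT11, 50.9% of CNOT8, 52.4% of RQCD1, 55.9% of CNOT6, 56.5% of CNOT6L and of CNOT1, 59.6% of CNOT2, 59.9% of CNOT10 and 60.6% of CNOT7. Over all tested genes with a coding sequence, put into 5 equal groups by this share, the median log2 change in Flag/HA-ZC3H7A cells against Flag/HA control cells was 0.21, 0.11, 0.02, -0.07 and -0.14 from the lowest share to the highest. CNOT3, in the second of these groups, and CNOT10, in the last, had log2 changes of the same sign as their group's median. CNOT6L in the fourth group and CNOT7 in the last had the opposite sign, and CNOT11, in the middle group, fell where the group's median was near 0. With ZC3H7B the medians were 0.19, 0.12, 0.05, -0.06 and -0.15. In the libraries labelled ZC3H7A/B-DD against Parental libraries they were -0.03, -0.04, -0.03, 0.01 and 0.10, and without Parental replicate 3 they were -0.07, -0.06, -0.06, -0.01 and 0.09. Across the 10 members the correlation of the codon share with the log2 change was -0.08 with ZC3H7A, -0.24 with ZC3H7B and -0.46 in the libraries labelled ZC3H7A/B-DD, or -0.48 without Parental replicate 3 (Pearson's r across genes, which share their libraries, as a description). Under that label the sign is opposite to the rise of the medians over all genes. All members but CNOT3 and CNOT11 lay between 50.9% and 60.6%, and the correlation without those genes was not computed.

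**Figure D5:**
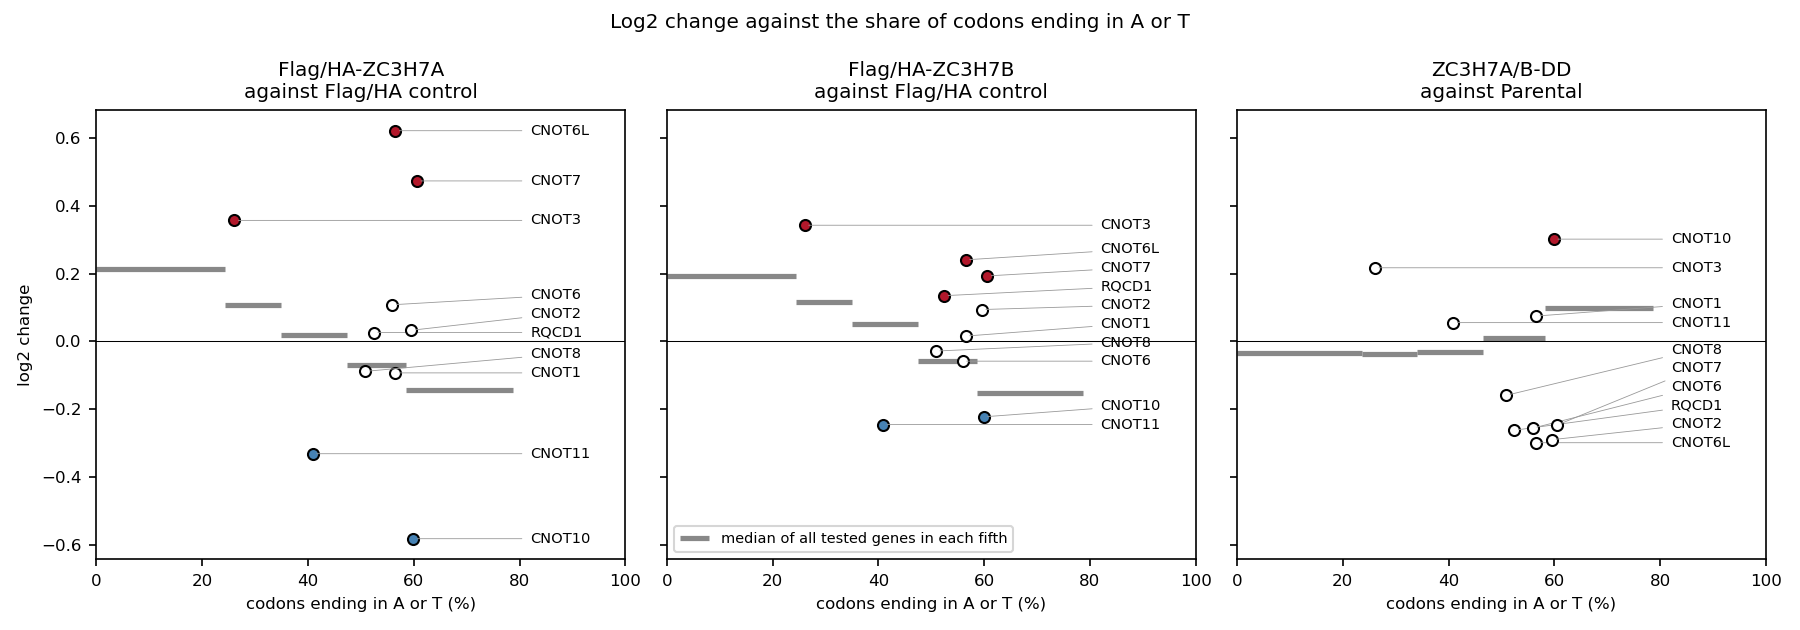
Log2 change (vertical axis) against the percentage of codons that end in A or T (horizontal axis) for the 10 genes in 3 comparisons; red points passed the test as higher, blue as lower and open ones did not pass, and grey bars give the median of all tested genes in each of 5 equal groups. The grey medians fall from 0.21 to -0.14 in the first panel, where CNOT6L at 0.62 and CNOT7 at 0.47 lie far above them.

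Among proteins around the complex, the associated proteins CNOT4, a ubiquitin ligase, and TNKS1BP1 were 2 of 2 higher with either protein and 0 of 2 called in the libraries labelled ZC3H7A/B-DD, or 1 of 2 higher without Parental replicate 3. Of all tested genes 29.2% were higher with ZC3H7A and 28.9% with ZC3H7B, and 24.5% were called under the ZC3H7A/B-DD label, or 33.1% without Parental replicate 3. TNKS1BP1 averaged 1314 ± 171 normalized counts in Flag/HA-ZC3H7A cells and 959 ± 23.5 in Flag/HA-ZC3H7B cells, against 734 ± 48.1 in Flag/HA control cells (SD, n = 3 each). Its log2 changes were 0.83 (limma adjusted p = 2.36e-09) and 0.39 (0.000147), and it was 0.45 higher in Flag/HA-ZC3H7A than in Flag/HA-ZC3H7B cells (5.11e-05). CNOT4 averaged 1429 ± 109 in Flag/HA-ZC3H7A cells and 1388 ± 55.1 in Flag/HA-ZC3H7B cells, against 1208 ± 43.0 in Flag/HA control cells, with log2 changes of 0.24 (limma adjusted p = 0.00170) and 0.20 (0.00780).

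Of 6 repressors and decapping activators that dock on CCR4-NOT, 5 were higher and 0 lower with each protein, with list medians of 0.21 for ZC3H7A and 0.17 for ZC3H7B, beside 29.2% and 28.9% of all tested genes higher and all-gene medians of 0.02 and 0.04; in each comparison 1 did not pass. LSM14B, an RNA-binding repressor, had log2 changes of 0.42 with ZC3H7A (limma adjusted p = 4.82e-08) and 0.59 with ZC3H7B (2.38e-10). LSM14A rose by 0.35 with ZC3H7A (limma adjusted p = 4.41e-07), and PATL1, a decapping activator, by 0.41 with ZC3H7B (2.42e-07). Between the lines, LSM14A was higher in Flag/HA-ZC3H7A cells (0.23), and LSM14B (-0.17) and PATL1 (-0.14) were lower. Under the ZC3H7A/B-DD label the list had 1 higher and 1 lower member, or 3 and 1 without Parental replicate 3, beside 11.0% and 13.5% of all genes, or 15.7% and 17.4% without that library. LSM14B averaged 1109 ± 52.4 in them, against 2330 ± 49.8 in Parental libraries (log2 change -1.07, limma adjusted p = 4.96e-05), and DDX6, the helicase that binds CNOT1, averaged 7932 ± 618, against 5833 ± 321 (0.44, 0.00946).

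Of 8 tested genes among 9 other deadenylases and their relatives (PNLDC1 did not pass the filter), 3 were higher and 3 lower with ZC3H7A, 1 and 2 with ZC3H7B, and 0 and 2 in the libraries labelled ZC3H7A/B-DD, with list medians of -0.08, -0.04 and -0.20. Without Parental replicate 3 the last pair was 0 and 3. Of all tested genes 57.5%, 54.3% and 24.5% were called in these comparisons, or 33.1% in the last without Parental replicate 3, with medians of 0.02, 0.04 and 0.02. PAN2, the nuclease of the PAN2-PAN3 complex, averaged 1929 ± 81.7 normalized counts in Flag/HA-ZC3H7A cells, against 2832 ± 72.7 in Flag/HA control cells (log2 change -0.55, limma adjusted p = 3.72e-09), and was lower in Flag/HA-ZC3H7A than in Flag/HA-ZC3H7B cells by a log2 change of -0.50 (4.21e-08). It averaged 739 ± 45.2 in the libraries labelled ZC3H7A/B-DD, against 1770.5 ± 121 in Parental libraries (-1.26, 4.69e-05). Its partner PAN3 was higher with ZC3H7A (0.25, limma adjusted p = 0.000308) and with ZC3H7B (0.24, 0.000481). PARN, a poly(A)-specific ribonuclease, had log2 changes of -0.47 with ZC3H7A (limma adjusted p = 2.10e-08) and -0.14 with ZC3H7B (0.0247) and -0.34 between the lines (6.96e-06). ANGEL2, a relative of the CCR4-type nucleases, had -0.37 with ZC3H7B (limma adjusted p = 8.66e-07) and was 0.22 higher in Flag/HA-ZC3H7A than in Flag/HA-ZC3H7B cells (0.000833). CCRN4L, the older symbol of NOCT, had a log2 change of 0.19 with ZC3H7A (limma adjusted p = 0.0134), and ANGEL1 had -0.50 in the libraries labelled ZC3H7A/B-DD (0.00486).

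Of 26 proteins that bring CCR4-NOT to mRNAs, 23 were tested (BTG4, NANOS2 and NANOS3 did not pass the filter). With ZC3H7A 9 were higher and 5 lower, with ZC3H7B 10 and 2, between the lines 4 and 5, and in the libraries labelled ZC3H7A/B-DD 5 and 5; the list medians were 0.10, 0.09, -0.05 and 0.10, beside 0.02, 0.04, -0.01 and 0.02 over all genes. Without Parental replicate 3 the last count was 11 higher and 4 lower. Called were 57.5%, 54.3%, 36.6% and 24.5% of all tested genes, or 33.1% in the last comparison without that library, so the shares of this list with each protein and between the lines were near those of all genes. NANOS1, a translational repressor, averaged 244 ± 54.8 in Flag/HA-ZC3H7A cells and 234 ± 27.3 in Flag/HA-ZC3H7B cells, against 109.7 ± 19.5 in Flag/HA control cells (log2 changes 1.14 and 1.10, limma adjusted p = 2.06e-06 and 3.82e-06). TOB1, an antiproliferative protein that binds CNOT7 and CNOT8, averaged 1984 ± 104 in Flag/HA-ZC3H7A cells and 1805 ± 30.5 in Flag/HA-ZC3H7B cells, against 2802 ± 65.8 in Flag/HA control cells (log2 changes -0.50 and -0.63, limma adjusted p = 1.08e-08 and 2.30e-10). Its relative BTG1 averaged 1051 ± 43.4 in Flag/HA-ZC3H7A cells, against 1834 ± 76.9 in Flag/HA control cells (-0.80, limma adjusted p = 3.68e-11), and was lower than in Flag/HA-ZC3H7B cells by a log2 change of -0.85 (2.81e-11). SAMD4B, of the Smaug family, had log2 changes of 0.66 with ZC3H7A (limma adjusted p = 8.12e-11) and 0.32 between the lines (1.52e-05), and RC3H1 (Roquin-1) 0.63 with ZC3H7B (1.41e-08). BTG3 had a log2 change of -0.12 with ZC3H7B (limma adjusted p = 0.0355) and of 0.73 in the libraries labelled ZC3H7A/B-DD (0.000762). ZFP36, which binds AU-rich elements, averaged 389 ± 29.3 in the libraries labelled ZC3H7A/B-DD, against 219 ± 11.9 in Parental libraries (0.82, limma adjusted p = 0.00132). CPEB2 (-0.67, limma adjusted p = 0.0305) and CPEB3 (-0.61, 0.0252), cytoplasmic polyadenylation element binding proteins, were lower in them. Without Parental replicate 3 the 8 list genes named for this comparison still passed by limma, in the same direction: PAN2 at -1.32, ANGEL1 at -0.54, BTG3 at 0.66, ZFP36 at 0.81, CPEB2 at -0.73, CPEB3 at -0.59, DDX6 at 0.49 and LSM14B at -1.08 on the log2 scale. Between the lines CPEB1 was higher (0.34, limma adjusted p = 0.0190) and CPEB3 lower (-0.51, 0.000956) in Flag/HA-ZC3H7A cells.

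By profile over the 15 libraries, the genes most like CNOT1 among 5575 genes with a mean of at least 1000 in both sets were H2AFY, SPATS2, PRC1, NUP93 and NUP188. Their log2 values, centred within each set, differed from those of CNOT1 by a root mean square of 0.0265, 0.0290, 0.0322, 0.0325 and 0.0388. Within the complex the closest profiles were those of CNOT6L and CNOT7 (0.0947), the nucleases that rose with both proteins, and of CNOT2 and CNOT8 (0.0960). The paralogs were farther apart than these closest pairs, at 0.175 for CNOT6 and CNOT6L and 0.194 for CNOT7 and CNOT8. Other member pairs reached 0.447 (CNOT6L and CNOT10). CNOT8 was the member closest to CNOT1 (0.101).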

How the data were processed

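Per the labels, 15 Ribo-seq libraries of HEK293 cells were made in 5 groups of 3. The authors deposited 1 table with a normalized signal (counts divided by a size factor) per gene name and library. The submitters' processing notes name DESeq2, HTSeq, STAR, Bowtie and cutadapt, with hg38 and hg19 as builds, but no versions or roles. Footprint lengths, the handling of reads with several positions and the strand setting: not given in the sources used here. Low values of each library were whole multiples of 1 step, so reads were recovered: 100% of values came out whole within 0.01 reads. A share of 0.173% to 0.285% of reads belongs to 28 names that a spreadsheet turned into dates. 

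The test was limma 3.58.1 in R 4.3.3, with a trended prior, on log2(value + 1). Genes had to reach 10 in 3 or more samples, p-values were adjusted after Benjamini-Hochberg over every gene tested, and the threshold was 0.05. Fold changes are on the log2(value + 1) scale and so are understated for low genes. A single fit held the 9 Flag/HA libraries, and a separate fit held the other 6. The edgeR 4.0.16 quasi-likelihood test of the recovered reads gave 9058 genes for ZC3H7A and 8497 for ZC3H7B, 5850 between those lines and 4132 under the ZC3H7A/B-DD label; DESeq2 1.42.0 gave 8528, 7934, 5360 and 4151 for the same comparisons. Paralog shares were compared by two-sided exact permutation of the libraries. Coding lengths and codons come from GENCODE release 29, 1 transcript per gene. Simulated data with known changes were also run through the limma step, each comparison by itself. The outcome is not given here, and no statement above rests on it. Alternatives were other pseudocounts, filters and scalings, array weights, a replicate block, the count tests, a fit over all libraries and leaving out each library.

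The members, gene lists, tests and naming rule were chosen with earlier results of these data known. Named are all members, the targets, called list genes with the 2 highest and 2 lowest log2 changes per list and comparison, and the 5 genes most like CNOT1.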

Additional observations from a re-analysis of the deposited data

Results flagged for a closer look

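Of the 10 members, 4 had changes that differed between the 2 overexpressed proteins by a test of the difference itself, the limma contrast of the Flag/HA-ZC3H7A and Flag/HA-ZC3H7B lines with adjustment over all genes. In the same contrast 36.6% of all tested genes passed, a share near that of the members. The log2 change with ZC3H7A minus that with ZC3H7B was 0.38 for CNOT6L, 0.28 for CNOT7 and 0.17 for CNOT6, and -0.36 for CNOT10. The first 3 encode nucleases and CNOT10 a subunit of the amino-terminal module, and all 3 libraries of Flag/HA-ZC3H7A cells lay on 1 side of those of Flag/HA-ZC3H7B cells for each, as they did for 43.7% of all genes. The CNOT6 difference no longer passed without Flag/HA-ZC3H7A replicate 3, where it was 0.10 (limma adjusted p = 0.119), without Flag/HA-ZC3H7B replicate 1 (0.0506) or 2 (0.0737), or in a fit over all 15 libraries (0.0964). Each protein was expressed in its own line, so the protein and the line cannot be told apart.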

How the results depend on the processing

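Of 680 alternative values for single members, 614 kept their direction and their side of the threshold, 37 newly passed, 19 no longer passed and 10, none of them called, changed sign. With ZC3H7A all 5 called members passed under all 17 alternatives run for each; with ZC3H7B CNOT3 and CNOT11 did. Quantile scaling gave 5 higher members with ZC3H7A, 1 lower with ZC3H7B, 3 lower between the lines and 1 lower under the ZC3H7A/B-DD label, and changed signs for CNOT8 with ZC3H7A (0.0033), CNOT6 (0.044) and CNOT8 (0.079) with ZC3H7B and CNOT1 in the libraries labelled ZC3H7A/B-DD (-0.022). For CNOT1 with ZC3H7B the log2 change was -0.0057 with TMM, -0.0056 in edgeR and -0.012 in DESeq2. In 1 fit over 15 libraries, 2 members were higher with ZC3H7B and 6 lower under the ZC3H7A/B-DD label. Over all genes, that fit called 3644 of 18589 higher with ZC3H7B and 3300 lower under the label. Array weights gave 2 members lower between the lines, and 2 higher and 6 lower under the ZC3H7A/B-DD label. Over all genes, array weights called 2903 of 15599 lower between the lines. Under the label they called 4426 of 17092 genes higher and 4577 lower, against 1873 and 2309 in the main fit. In that last comparison no filter on low values gave 0 members higher, a filter at 50 gave 1 lower, and TMM and edgeR 2 lower each. DESeq2 gave 2 lower between the lines. The cause was not tested. Leaving out 1 library at a time gave 2 to 4 members higher with ZC3H7B, 1 to 2 lower between the lines, and 0 to 2 higher and 0 to 3 lower under the ZC3H7A/B-DD label, and log2 changes of -0.0026 to 0.045 for CNOT1 with ZC3H7B, -0.0097 to 0.049 for CNOT3 between the lines and -0.058 to 0.14 for CNOT11 in the libraries labelled ZC3H7A/B-DD.

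Samples share only a replicate number: same-number correlations of deviations ran from -0.133 to 0.0922. With the replicate block 2 members were lower between the lines (CNOT1 and CNOT10) and 0 were higher in the libraries labelled ZC3H7A/B-DD (CNOT10 at an adjusted p of 0.0716); no other member call changed.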
